A study of Mus musculus with 23 samples.

Results

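Mouse oligodendrocytes (OLs) were compared with the oligodendrocyte progenitor cells (OPCs) they form from, each purified on magnetic beads, across all genes with a usable level. There were 3 libraries of poly(A) RNA in each group, 6 of the 23 libraries of the series. Of 35385 deposited gene symbols, the 11902 with at least 1 TPM in at least 3 of the 6 libraries were tested. TPM is a transcript level scaled for transcript length and library size. Per the labels, the progenitors had been derived from the epiblast stem cell lines EpiSC5 (strain 129SvEv) and 129O1 (strain 129S1/SvImJ). They had been purified by flow cytometry for the surface proteins CD140a and NG2 after 4 passages, then expanded and frozen. OPCs grew in medium with 20 ng/mL bFGF and 20 ng/mL PDGFA. For OLs, which the labels' protocols call immature, the medium held no such growth factors but 100 ng/mL noggin, 100 ng/mL IGF-1, 10 uM cyclic AMP, 10 ng/mL NT3 and 40 ng/mL of the thyroid hormone T3. OLs were taken as cells positive for O1, an antibody to myelin galactolipids. Neither group carried a targeting construct per its labels. In the labels, OPC replicate 1 is of EpiSC5 and replicate 2 of 129O1, but the deposited columns carry the letters A, B and C, so the line behind each library is not known. No source used here gives the time in differentiation medium or the target of the OPC beads. Whether the libraries of a group are of separate cultures is not stated, and a p-value here speaks only of the spread among these 6 samples, which may be technical.

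Oligodendrocytes make myelin, the stacked membrane that insulates axons. Their progenitors divide under platelet-derived growth factor and fibroblast growth factor. When these are withdrawn, and thyroid hormone is present, the cells leave the cell cycle, pass through a newly formed, premyelinating stage, and then make myelin proteins and lipids in quantity.

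The genes set against the labels were each higher in every library of 1 group than in any of the other. Mbp, Mag, Tubb4a, Top2a and Tnc are among the largest rises and falls of this same comparison. They were chosen with earlier results of these data known, so their separation is no independent check of the labels. The wider progenitor list, given below, was mixed. Mbp, which encodes myelin basic protein, read 0.339, 0.0459 and 0.461 TPM in the OPC libraries and 16026, 16186 and 16652 TPM in the OL libraries. Tubb4a, a beta-tubulin of oligodendrocytes, read 5.05, 3.71 and 4.75 TPM in the OPC libraries and 1482, 1493 and 1326 TPM in the OL libraries. Mag, for a myelin adhesion protein facing the axon, was listed at 0 in all OPC libraries and read 1624, 1626 and 1456 TPM in OLs. These 3 genes were under 6 TPM in every OPC library and had no overlap between groups, as held for 67.5% of all genes tested. In the other direction, Top2a, the topoisomerase of dividing cells, read 319, 337 and 295 TPM in the OPC libraries and 12.6, 7.51 and 5.2 TPM in the OL libraries. Tnc, for the matrix protein tenascin C, read 130.4, 131 and 112 TPM in the OPC libraries and 1.17, 1.15 and 2.14 TPM in the OL libraries. Pdgfra, which encodes CD140a itself, read only 8.91, 10.2 and 15.1 TPM in the OPC libraries, and 1.4, 0.148 and 1.17 TPM in OLs. Cspg4, which encodes NG2, read 33.7, 25.6 and 32.6 TPM in the OPC libraries and 13.7, 12.2 and 14.2 TPM in the OL libraries. The progenitor surface genes were thus modest in level but higher in every OPC library than in any OL library.

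The libraries of a group lay close together. Pearson's r across the genes tested, on log2(TPM + 1), was at least 0.972 within groups and at most 0.794 between them, and the first principal component, which separated the groups, held 85.9% of the variance. The deposited symbols summed to 78.4% to 79.6% of the TPM scale in each library, and the rest was in no deposited symbol. Some genes that every cell uses stood low: Actb, for beta-actin, read 22.7, 18.4 and 27.8 TPM in the OPC libraries and 29.9, 33.6 and 37.5 TPM in the OL libraries, and Rplp0, for a ribosomal protein, had a mean of 50.8 to 39.6 TPM from OPCs to OLs. A TPM here can therefore be part of a gene's RNA, and which transcripts held the rest was not determined. The depth behind the TPM is unknown. All values were compared between groups for the same gene, and the limit applies there if the counted part differs between groups. Whether it differs was not tested. The limit also applies where levels of different genes are set side by side.

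The 2 cell stages differed across most of the genes measured. OLs held high levels of myelin protein genes, newly formed oligodendrocyte genes and genes of lipid chains, lysosomes, junctions and microtubules, while OPCs held higher levels of genes for DNA replication, mitosis, ribosomes, ERK pathway feedback and RNA binding. By limma on log2(TPM + 1), 7160 of 11902 genes passed the threshold of 0.05 after Benjamini-Hochberg adjustment, which is 60.2%. Of these, 3132 (26.3% of those tested) were higher in OLs and 4028 (33.8%) were lower. With an estimated change of at least 2-fold there were 1669 higher and 1989 lower genes, and at least 16-fold there were 139 higher and 74 lower. The balance at 2-fold turned to 1824 higher and 1749 lower with libraries centred on their medians. The libraries of the groups did not overlap at all for 8035 genes, 67.5% of those tested, so lack of overlap does not set a named gene apart. The median log2 change over all genes was -0.14. Of the 4742 genes not called, 3428 had a 95% interval within 1 of 0 on that scale, so a 2-fold change lay outside it. In all that follows, "rose" and "fell" mean higher or lower in OLs past this threshold, levels are mean ± SD TPM (n = 3 libraries a group), and log2 changes are of TPM + 1, so they are smaller than the true change for low genes. Bulk RNA cannot tell fewer cells of a type from less RNA per cell.

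**Figure D1:**
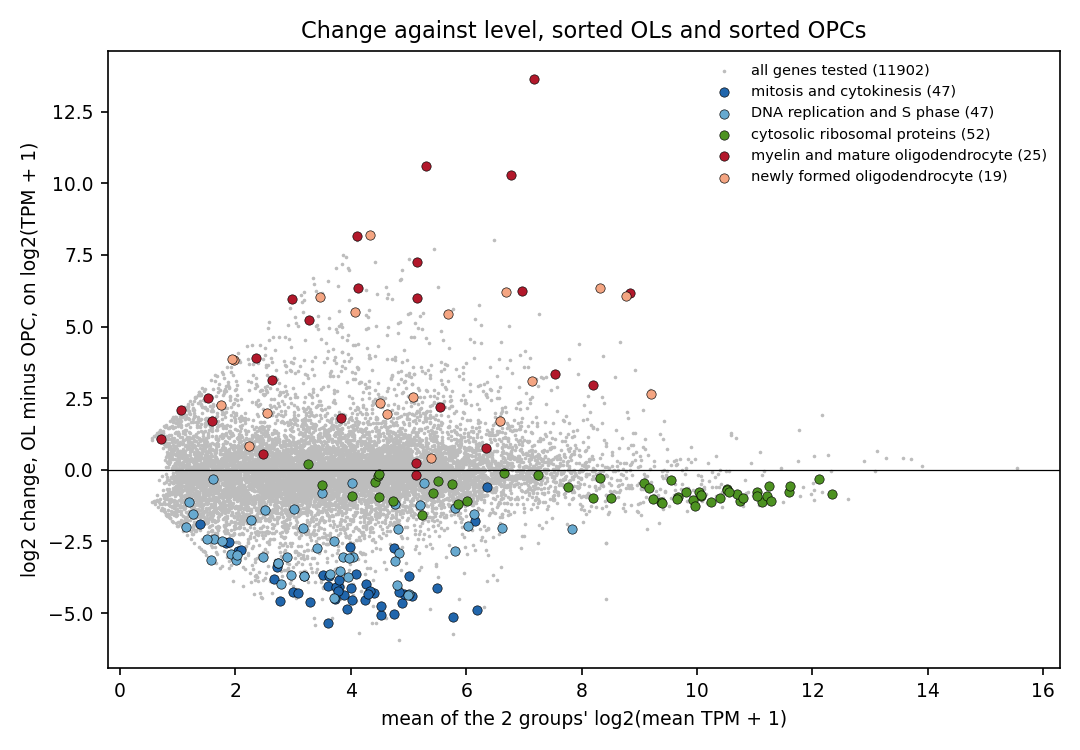
Change from OPCs to OLs (y axis, log2(TPM + 1) scale) against the mean level of each gene (x axis, log2 scale), 1 point per gene tested, with 5 gene lists coloured. Among the myelin genes, Mbp (13.65) stood out with Mag, which is listed at 0 in OPCs, all 47 mitosis genes lay below 0, and ribosomal protein genes formed a band around their median of -0.83.

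Gene lists are described by how many tested members rose and fell, against the shares of 26.3% and 33.8% over all genes, and by their median change, against -0.14. The lists hold 1557 different genes, of which 1238 were tested.

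**Figure D2:**
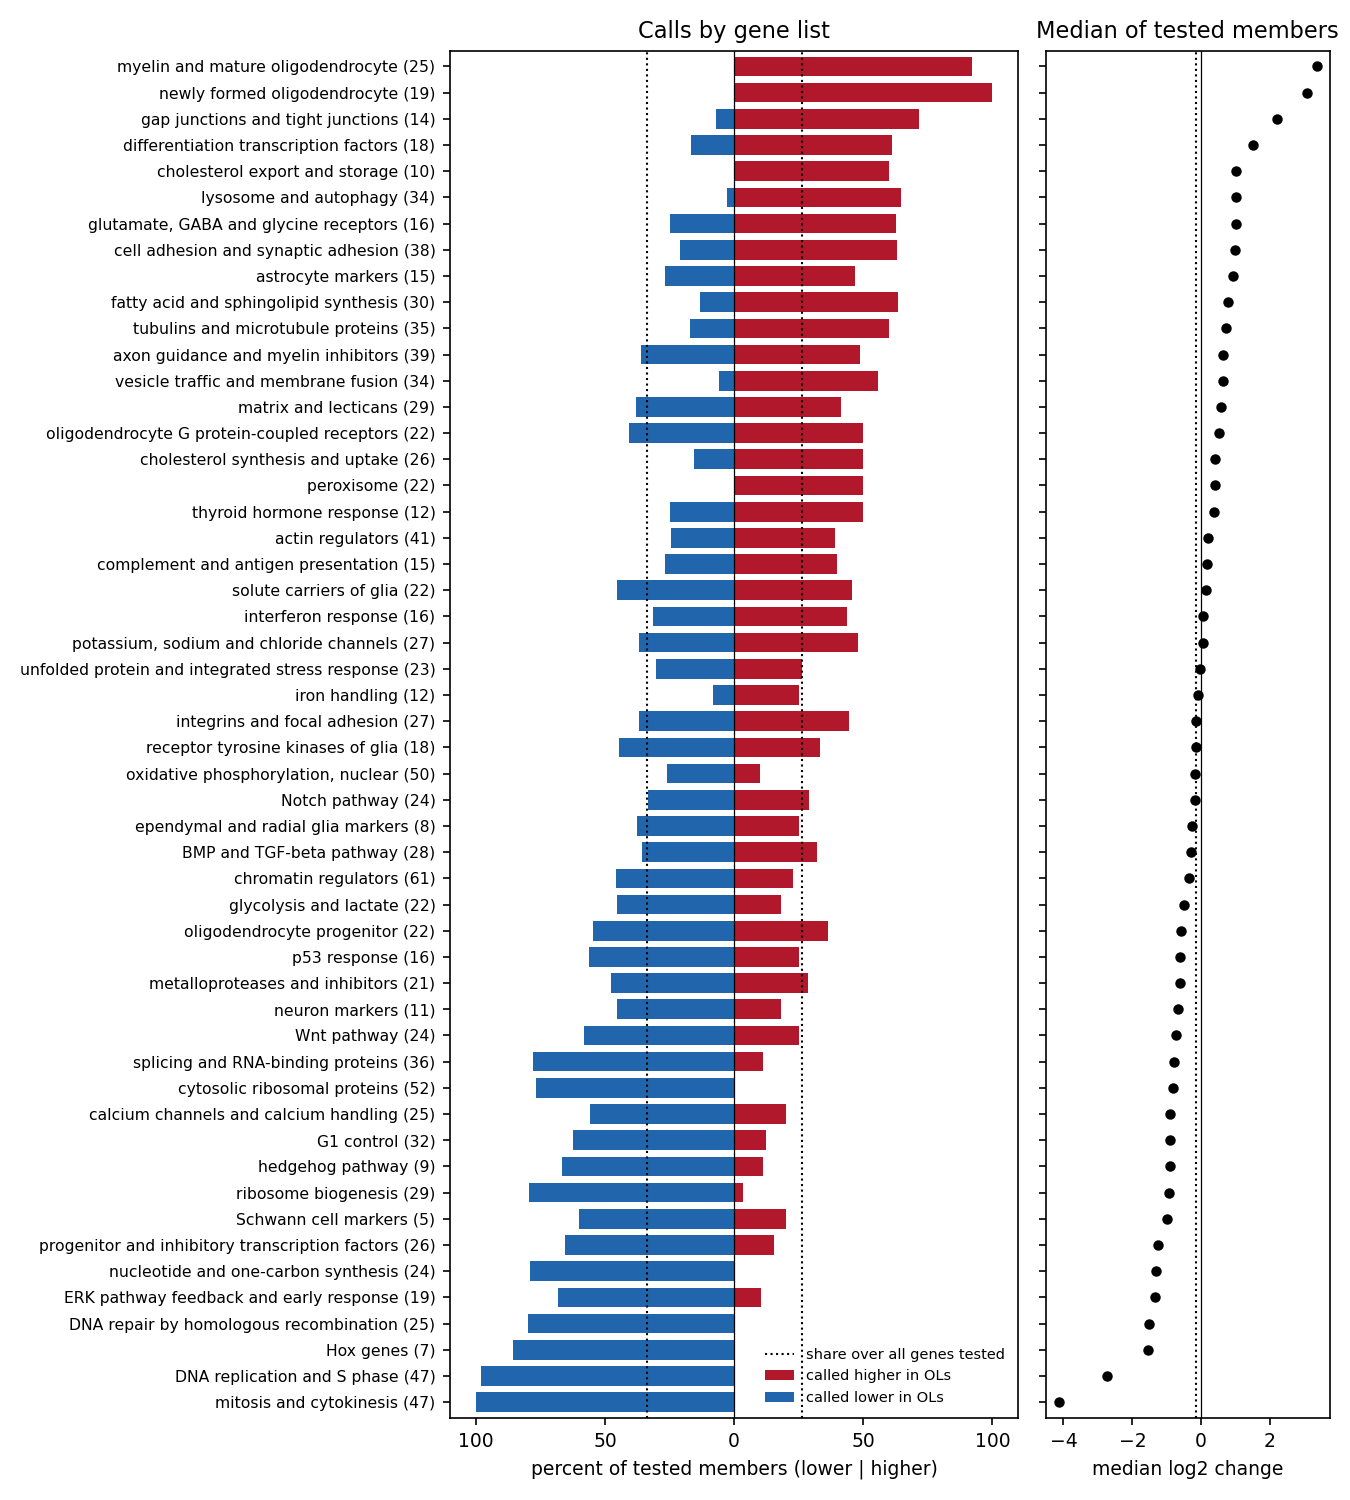
Left, percent of tested members of each gene list (number tested in parentheses) called higher (red, right) or lower (blue, left) in OLs; right, their median log2 change. Dotted lines mark the values over all genes, and the 52 lists with at least 5 tested members run from the myelin list (median 3.36) to the mitosis list (median -4.14).

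Of 25 tested genes of myelin and mature oligodendrocytes, 23 rose, 21 of them at least 2-fold, and none fell by limma, with 0 lower also at an unadjusted p under 0.05. Their summed level went from 402 ± 23.4 to 29688 ± 215 TPM, or from 0.0512% to 3.73% of the deposited TPM. Cnp, for the enzyme CNPase of non-compact myelin, read 45, 43.3 and 71.8 TPM in the OPC libraries and 3774, 3906 and 3888 TPM in the OL libraries so that its RNA was already present in OPCs (log2 6.19, SE 0.203, adjusted p = 4.86e-06). Mobp, for a basic protein of compact myelin, was at 0 in all but 1 OPC library and read 350.5, 248 and 279.8 TPM in OLs. Cldn11, the claudin that seals the myelin lamellae, went from 1.88 ± 0.561 to 439 ± 76.2 TPM (log2 7.26). Further rises were in Pllp, for plasmolipin (0.943 to 155 TPM), and Nfasc, whose product anchors the myelin loops and the node (3.58 to 274 TPM). Mbp alone held 2.01% to 2.09% of the deposited TPM of each OL library, and its change (log2 13.65, SE 0.142, adjusted p = 3.25e-07) had the highest value of all genes tested.

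Not every gene of mature myelin was listed at a high level in OLs. Mog, for the outer-surface protein of mature myelin, was listed at 0 in all OPC libraries and read 0, 1.05 and 1.76 TPM in OLs, below the filter. Mal, for a lipid raft protein of myelin, was listed at 0 in all 6 libraries. Ermn, for the late cytoskeletal protein ermin, read 1.97, 1.47 and 0.964 TPM in the OL libraries. These 3 genes stood far under Cnp. As a TPM here can be part of a gene's RNA, a low value or a listed 0 does not show that the RNA was absent. Opalin, a later marker, did rise (0.583 ± 0.128 to 58.2 ± 9.22 TPM), as did Aspa, for the enzyme that frees acetate from N-acetylaspartate (0.674 to 4.45 TPM), and Hapln2, a link protein of the node (0.121 to 1.39 TPM), the latter pair at low levels. Car2, for carbonic anhydrase II, had a mean of 31.3 to 37.3 TPM and was not called (adjusted p = 0.24).

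All 19 tested genes of newly formed oligodendrocytes rose, 17 at least 2-fold, and their sum went from 521 ± 52.7 to 10359 ± 291 TPM, with a median change of 3.09. No member was lower at an unadjusted p under 0.05 either. Bcas1, a marker of early myelinating cells, read 29.5, 27.8 and 46.8 TPM in the OPC libraries and 2765, 2971 and 2802 TPM in the OL libraries. Sirt2, a deacetylase whose substrates include tubulin, read 50.4, 49.3 and 58 TPM in the OPC libraries and 3599, 3637 and 3525 TPM in the OL libraries and was among the 10 genes of highest level in OLs. Gpr17, a receptor gene of committed premyelinating cells, read 8.59, 6.88 and 19.1 TPM in the OPC libraries and 814, 865 and 864 TPM in the OL libraries. Each OL library stood many times over every OPC library for these 3 genes. Enpp6, a choline phosphodiesterase gene that marks cells starting to differentiate, was listed at 0 in OPCs and stood at 13.7 ± 0.866 TPM in OLs. Bmp4, for a secreted signal, was likewise at 0 and then at 14.4 ± 7.1 TPM. Neu4, for a sialidase, went from 0.353 ± 0.137 to 89.2 ± 15.6 TPM. Lims2 overlaps the Gpr17 gene on the opposite strand, and the kit is blind to strand. Reads from the stretch they share therefore cannot be told apart by strand, and how many reads this concerns was not measured. The OPC libraries were uneven for Lims2, at 1.34, 0.711 and 30.1 TPM, against 198, 167 and 305 TPM in OLs.

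The progenitor list was mixed, with 12 of 22 tested genes lower, 8 higher and a median of -0.59. Its summed level was higher in OLs, at 1465 ± 117 TPM in OPCs and 1895 ± 43.8 TPM in OLs. Falls were in Cspg5, for the proteoglycan neuroglycan C (185 ± 27.9 to 26.4 ± 8.32 TPM, log2 -2.80, SE 0.244, adjusted p = 0.000169), Ptprz1, for a receptor phosphatase (429 ± 25.5 to 162 ± 10.3 TPM), and Xylt1, which starts glycosaminoglycan chains (50.7 to 12.7 TPM). Against them, Tnr, for the matrix protein tenascin R, read 1.87, 1.32 and 2.95 TPM in the OPC libraries and 590.2, 649.7 and 600.2 TPM in the OL libraries. Gpr37l1, an orphan receptor gene, went from 1.2 ± 0.409 to 167 ± 13.8 TPM, and Vcan, for the proteoglycan versican, from 56.4 ± 10.9 to 129 ± 4.4 TPM. C1ql1, Matn4, Sema5a and Sulf2 also rose, with log2 changes from 0.52 to 3.94, and S100a3, listed at 0 in OPCs, stood at 3.18 ± 1.59 TPM in OLs. The 2 tenascin genes thus moved in opposite directions, Tnc from 125 ± 10.6 to 1.48 ± 0.563 TPM (log2 -5.68, SE 0.176, adjusted p = 4.27e-06) and Tnr by a log2 change of 7.69 (SE 0.2005).

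The rest of the 15 largest rises were in genes of varied function. Tmem163, for a zinc transporter, went from 0.195 ± 0.173 to 343 ± 13.9 TPM. Rasgef1b, for an exchange factor of small GTPases, went from 0.0819 ± 0.142 to 196 ± 20.4 TPM. Kcna1, for a potassium channel, went from 0.151 ± 0.0742 to 199 ± 24.5 TPM. Each was under 1 TPM in every OPC library and over 170 TPM in every OL library. Dusp15, for a phosphatase, went from 1.56 ± 0.721 to 406 ± 19.7 TPM, and Tmem88b, for a membrane protein, from 0.741 ± 0.337 to 262 ± 15.8 TPM. Prickle1, of the planar cell polarity pathway, went from 0.371 ± 0.323 to 175 ± 9.47 TPM. In all, 87 genes had a mean under 1 TPM in OPCs and at least 10 TPM in OLs and rose, and 69 genes showed the reverse. The 15 largest rises, Mag included, ran from 7.03 to 13.65 on the log2 scale (adjusted p from 1.96e-07 to 3.52e-06), and the 15 largest falls from -5.93 to -4.85 (adjusted p from 3.21e-06 to 4.39e-05).

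**Figure D3:**
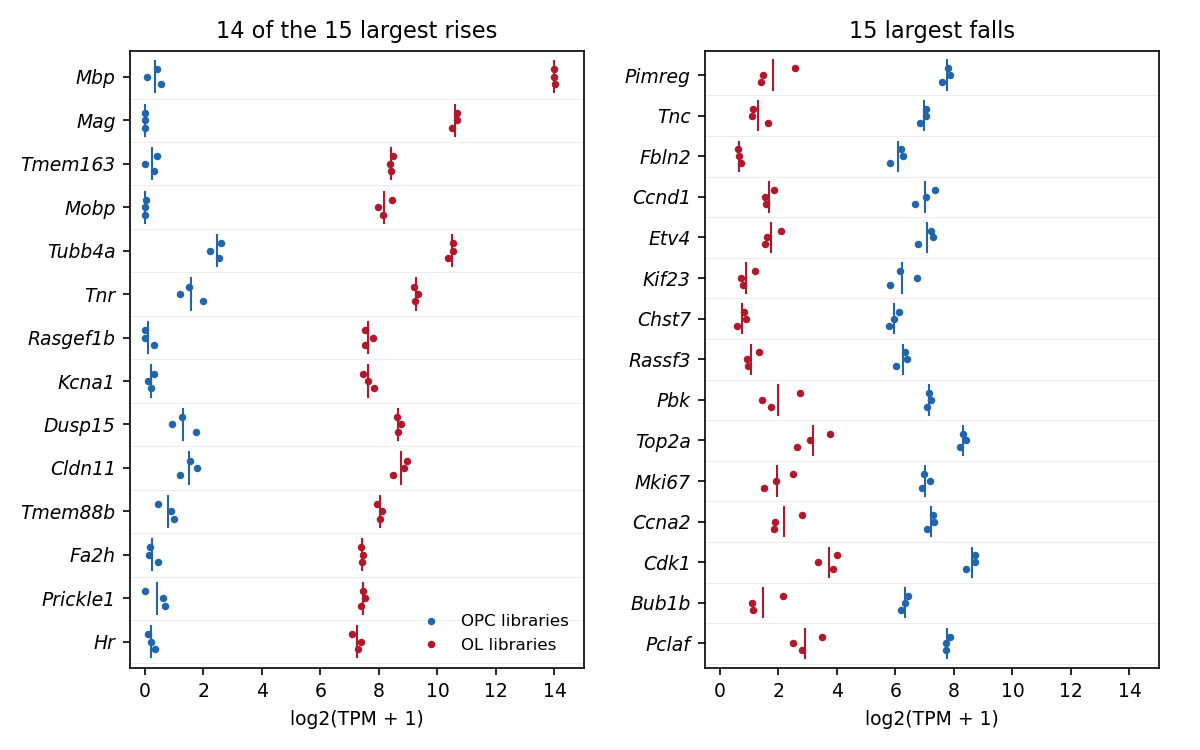
Level of 14 of the 15 genes with the largest rise (left) and the 15 with the largest fall (right) in each library, as log2(TPM + 1); points are libraries, vertical lines are group means, blue OPCs and red OLs. The genes were picked among those without overlap between groups, so its absence here is by choice. Mbp lies between 16026.5 and 16652 TPM in OLs and Top2a between 295 and 337 TPM in OPCs.

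Transcription factor genes of differentiation mostly rose, 11 of 18 tested against 3 lower, with a median of 1.50. Sox10, the factor that drives myelin genes, read 34.3, 24.3 and 29.7 TPM in the OPC libraries and 456, 571 and 439 TPM in the OL libraries (log2 4.01, SE 0.168, adjusted p = 1.00e-05). Myrf, the membrane-bound factor needed for myelin gene expression, read 0.415, 0.167 and 0.448 TPM in the OPC libraries and 93.6, 103 and 87.8 TPM in the OL libraries (log2 6.16, SE 0.126, adjusted p = 1.32e-06). Both were higher in every OL library than in any OPC library. St18 (0.00772 to 16 TPM), Zfp536 (0.219 to 16.8 TPM), Zfp488 (8.74 to 86 TPM) and Zeb2 (10.8 to 75.8 TPM) rose as well, as did Tcf7l2, a Wnt effector of the premyelinating stage (11.7 to 47.3 TPM). Nkx6-2 went from 4.86 ± 2.12 to 20.1 ± 2.08 TPM and Sox8 from 106 ± 25.4 to 224 ± 19.9 TPM. Sall3 fell from 47.4 ± 0.999 to 3.02 ± 0.57 TPM (log2 -3.60, SE 0.123, adjusted p = 5.41e-06). Olig1 and Olig2, the factors that define the lineage, stayed high, at 970.3, 890.5 and 1181 TPM in the OPC libraries and 719, 661 and 765 TPM in the OL libraries for Olig1. Their falls were small (log2 -0.50 and log2 -0.36); that of Olig1 was lost without OL library A or OL library B (adjusted p from 0.0506 to 0.0637), and that of Olig2 was lost in 3 of 14 alternative settings, among them without OL library B or OL library C (adjusted p from 0.0527 to 0.0716).

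Factors of progenitors and inhibitors of differentiation mostly fell, 17 of 26 tested with 4 higher and a median of -1.24. Etv4, an ETS factor induced by growth factors, read 148, 155 and 108 TPM in the OPC libraries and 3.23, 2.07 and 1.91 TPM in the OL libraries (log2 -5.35, SE 0.204, adjusted p = 7.58e-06). Sox11 (49.5 to 5.77 TPM), Sox9 (47.1 to 16.9 TPM), Sox3 (72.9 to 21.7 TPM) and Sox5 (8.13 to 2.27 TPM) fell, and so did Nfia (13.7 to 2.97 TPM) and Nfib (52.1 to 13.2 TPM). Hes1, a Notch target, went from 31.2 ± 6.27 to 5.97 ± 1.62 TPM, and Id3, an inhibitor of basic helix-loop-helix factors, from 201 ± 25.5 to 48.8 ± 12 TPM. The members that rose were Sox2, a stem cell factor (186 ± 24.8 to 409 ± 24.5 TPM), Sox6, a SoxD factor (61.5 ± 13.3 to 106 ± 17.3 TPM), Id4 (0.647 ± 0.286 to 5.23 ± 2.03 TPM) and Hey2 (1.15 ± 0.471 to 2.59 ± 0.34 TPM). Among SOX genes, Sox10, Sox8, Sox2 and Sox6 therefore moved up while Sox11, Sox9, Sox5 and Sox3 moved down. Sox4 (168 to 214 TPM) was not called with all libraries (adjusted p = 0.159) and was called without OPC library C (adjusted p = 0.00364).

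Genes induced by the ERK pathway, through which growth factor receptors act, fell in 13 of 19 tested, with a median of -1.34. Spry1, Spry2 and Spry4 encode Sprouty proteins, which are feedback inhibitors of receptor signalling. Spry4 read 29, 24.5 and 19.6 TPM in the OPC libraries and 0.168, 0.174 and 0.133 TPM in the OL libraries, and Spry1 went from 62.3 ± 11.3 to 2.18 ± 0.686 TPM and Spry2 from 101 ± 4.87 to 15.9 ± 1.61 TPM. Dusp6, for the phosphatase of ERK, read 86.7, 61.5 and 51.2 TPM in the OPC libraries and 1.82, 1.75 and 2.16 TPM in the OL libraries (log2 -4.50, SE 0.201, adjusted p = 1.27e-05). All 3 libraries of OLs lay far under every OPC library for these genes. Ccnd1, for cyclin D1, read 162, 132 and 100.1 TPM in the OPC libraries and 2.64, 1.92 and 2.0 TPM in the OL libraries (log2 -5.36, SE 0.198, adjusted p = 6.73e-06). Fos (10.2 ± 1.09 to 29.5 ± 9.85 TPM) and Junb (3.64 ± 1.2 to 7.01 ± 1.53 TPM) rose, the call of Junb being lost in 6 of 14 alternative settings, among them without OPC library B, OPC library C, OL library B or OL library C (adjusted p from 0.0544 to 0.0869), and Jun (56.5 to 52.7 TPM) was not called.

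The receptors themselves split, 6 of 18 tested tyrosine kinase genes higher and 8 lower. Egfr, for the epidermal growth factor receptor, went from 29.6 ± 7.46 to 1.77 ± 1.11 TPM (log2 -3.52, SE 0.368, adjusted p = 0.000356), and Pdgfra by a log2 change of -2.74 (adjusted p = 0.000637). Among the receptors for fibroblast growth factors, Fgfr1 went from 51.1 ± 4.31 to 15.7 ± 3.14 TPM and Fgfr3 from 51.5 ± 3.65 to 24.9 ± 10.5 TPM, while Fgfr2 went from 10.7 ± 1.55 to 73 ± 3.43 TPM (log2 2.67, SE 0.122, adjusted p = 1.39e-05). The neuregulin receptors divided too: Erbb2 fell (10 to 2.28 TPM), while Erbb3 (1.19 to 14.2 TPM) and Erbb4 (5.89 to 22.3 TPM) rose. Ddr1, a collagen receptor gene, went from 54.5 ± 0.597 to 245 ± 14 TPM. Igf1r, the receptor gene for a factor present in the OL medium, stood at 16.5 to 16.6 TPM and was not called.

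Of 24 tested genes of the Notch pathway, which holds progenitors undifferentiated, 7 rose and 8 fell. Both counts are near the shares of 26.3% higher and 33.8% lower over all genes, so the list shows no direction of its own. The Notch genes that fell included the receptor genes Notch1 (64.7 ± 3.0 to 21.1 ± 2.4 TPM) and Notch3 (27.2 to 4.62 TPM), the ligand gene Jag1 (14.2 to 3.52 TPM), the glycosyltransferase gene Lfng (119.6 ± 6.89 to 9.88 ± 2.68 TPM, log2 -3.50, SE 0.187, adjusted p = 2.43e-05) and the target Nrarp (37.2 to 7.13 TPM). Mfng, a related glycosyltransferase gene, went the other way, from 8.95 ± 2.54 to 37.1 ± 6.9 TPM, and so did Cntn1, for a contactin (92.8 ± 15.4 to 291 ± 10.5 TPM). Of 24 Wnt genes, 14 fell and 6 rose. The ligand genes Wnt7b (86.9 ± 10 to 12.8 ± 1.84 TPM) and Wnt7a (32.7 ± 3.88 to 5.79 ± 1.71 TPM) and the receptor genes Fzd9 (50.2 to 7.98 TPM), Fzd2 (21.2 to 3.36 TPM), Fzd1 (34.5 to 13.2 TPM) and Fzd7 (11.4 to 1.78 TPM) were among those lower. Axin2, a feedback target of the pathway, went from 8.74 ± 0.0713 to 4.81 ± 0.745 TPM. Daam2, an effector, rose from 1.27 ± 0.0758 to 25.1 ± 6.88 TPM.

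BMP and TGF-beta genes were balanced, 9 of 28 higher and 10 lower, or 7 and 6 of 18 with a filter at 5 TPM. Bmp7 fell (28.6 ± 3.76 to 3.06 ± 0.867 TPM) while Bmp4 rose, and the inhibitor gene Smad7 went from 1.02 ± 0.24 to 18.1 ± 1.93 TPM (log2 3.24, SE 0.133, adjusted p = 9.45e-06). Fstl1, for a secreted follistatin-like protein, fell from 64 ± 8.14 to 12.2 ± 3.32 TPM. Of 9 hedgehog genes, 6 fell, among them Smo, for the signal transducer (66.4 ± 0.834 to 22.7 ± 4.06 TPM), Gas1, for a co-receptor (43.6 ± 0.391 to 5.1 ± 0.726 TPM), and Gli3 (5.49 to 1.03 TPM). Hhip, for a protein that binds hedgehog ligands, rose from 1.46 ± 0.298 to 16.5 ± 1.97 TPM and was the only member higher. No hedgehog ligand was added to these cultures per the labels.

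The thyroid hormone list, of interest since T3 was in the OL medium alone per the growth protocol, had 6 of 12 tested genes higher and 3 lower. Hr, a direct target gene of the hormone that encodes a corepressor, read 0.0834, 0.166 and 0.263 TPM in the OPC libraries and 133, 167 and 157 TPM in the OL libraries (log2 7.03, SE 0.124, adjusted p = 1.04e-06). Klf9, another such target, read 10.3, 9.6 and 8.43 TPM in the OPC libraries and 97.5, 102 and 96.6 TPM in the OL libraries (log2 3.26, SE 0.103, adjusted p = 4.65e-06). Thra, for the receptor itself, went from 15.5 ± 7.06 to 76.3 ± 4.41 TPM (log2 2.31). These genes had no overlap between groups, as held for 67.5% of all genes tested, and showed the largest changes of the list. Of the receptors coupled to G proteins, 11 of 22 rose and 9 fell. Beside Gpr17, Gpr37, whose product is found in maturing oligodendrocytes, went from 1.92 ± 0.455 to 50.1 ± 2.79 TPM, and Ednrb, for an endothelin receptor, from 23.9 ± 2.61 to 116 ± 20.1 TPM. S1pr5, a sphingosine phosphate receptor gene of the mature lineage, went from 0.0124 ± 0.0215 to 5.44 ± 2.05 TPM. Adgrg1, for the adhesion receptor GPR56 of dividing progenitors, fell from 405 ± 22.8 to 158 ± 10.9 TPM, and Adora1, an adenosine receptor gene, from 36.8 ± 5.88 to 8.7 ± 1.74 TPM.

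The cell cycle genes gave the most uniform fall. All 47 tested genes of mitosis and cytokinesis fell, 46 at least 2-fold, with a median of -4.14, and 46 of 47 tested genes of DNA replication fell with a median of -2.73. No member of either list was higher by limma, and 0 were higher at an unadjusted p under 0.05. Summed levels went from 3831 ± 355 to 252 ± 41.9 TPM for mitosis and from 2577 ± 212 to 483 ± 16.3 TPM for replication. Cdk1, the kinase of mitotic entry, read 418, 425 and 341 TPM in the OPC libraries and 14.9, 9.14 and 13.4 TPM in the OL libraries (log2 -4.89, SE 0.197, adjusted p = 9.10e-06). Mki67, the gene of the proliferation marker Ki-67, read 124, 144 and 120.1 TPM in the OPC libraries and 4.63, 2.73 and 1.82 TPM in the OL libraries. Ccnb2, for a B-type cyclin, read 58.3, 64 and 75.1 TPM in the OPC libraries and 3.71, 2.0 and 2.92 TPM in the OL libraries. In each case the lowest OPC library was many times the highest OL library. Kif23, of the central spindle, Pbk, a mitotic kinase gene, and Pimreg, a mitotic regulator, were among the 15 largest falls, Pimreg from 214 ± 21.4 to 2.79 ± 1.89 TPM.

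Promoters of the mitosis list were searched for short sequences, which the comparison had not used. In the 250 bases before the start of each RefSeq transcript (build GRCm38.p6), the CCAAT box bound by NF-Y was present on either strand in 33 of 45 promoters of 42 matched mitosis genes (73.3%), against 33.8% of all 32851 promoters and 35.8% of those of tested genes. The box was common in other lists too, at 68.0% of 25 promoters of cholesterol synthesis and uptake, a list with more rises than falls, 58.0% of 50 of DNA replication, 57.1% of 21 of repair and 53.3% of 15 of ERK feedback genes. The letters TTTGAA, the core of the cell cycle homology region, were in 42.2% of the mitosis promoters, against 15.99% of all and 10.6% of those of tested genes. Both occurred together in 37.8%, against 5.55% and 4.08%. In the other 7 lists searched, the share with TTTGAA ran from 0 of 15 promoters (ERK feedback) to 7 of 50 (DNA replication). For DNA replication genes (50 promoters of 42 genes) the letters GCGGGAA of the E2F site core were in 24.0%, against 3.82% of all promoters and 6.99% of those of tested genes. They were in 23.8% of repair promoters, 4 of 25 cholesterol promoters and 2.22% of mitosis promoters. These are matches of letters and no evidence of binding. The 4 promoters below are shown because they hold both mitosis motifs, in capitals on either strand (CCAAT reads ATTGG and TTTGAA reads TTCAAA on the other). They belong to Top2a (chr11:99024190-99024439), Cdk1 (chr10:69352913-69353162), Mki67 (chr7:135716380-135716629) and Ccnb2 (chr9:70421555-70421804), all on the minus strand, and are written 5′ to 3′ toward the start.
Top2a: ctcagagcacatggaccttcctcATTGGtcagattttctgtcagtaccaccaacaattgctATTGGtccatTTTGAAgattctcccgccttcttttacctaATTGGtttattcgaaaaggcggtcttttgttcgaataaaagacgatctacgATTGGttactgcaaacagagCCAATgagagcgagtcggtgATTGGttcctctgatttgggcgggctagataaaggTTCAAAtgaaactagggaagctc
Cdk1: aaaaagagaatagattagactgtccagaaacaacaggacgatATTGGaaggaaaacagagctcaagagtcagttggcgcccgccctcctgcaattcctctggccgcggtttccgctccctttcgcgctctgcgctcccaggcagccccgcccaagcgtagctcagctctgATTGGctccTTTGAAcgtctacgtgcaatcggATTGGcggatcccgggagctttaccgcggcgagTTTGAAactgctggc
Mki67: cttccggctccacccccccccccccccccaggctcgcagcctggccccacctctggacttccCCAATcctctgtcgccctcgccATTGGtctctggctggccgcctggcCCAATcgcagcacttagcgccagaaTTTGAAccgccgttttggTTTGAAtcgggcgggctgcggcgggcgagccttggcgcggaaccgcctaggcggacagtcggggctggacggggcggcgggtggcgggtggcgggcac
Ccnb2: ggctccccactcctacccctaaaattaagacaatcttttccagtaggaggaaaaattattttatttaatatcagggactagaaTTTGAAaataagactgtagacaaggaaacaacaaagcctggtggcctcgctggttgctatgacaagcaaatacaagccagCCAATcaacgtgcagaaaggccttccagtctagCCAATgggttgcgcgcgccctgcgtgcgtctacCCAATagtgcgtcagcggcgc
Top2a held 6 CCAAT and 2 TTTGAA matches, Cdk1 3 and 2, Mki67 3 and 2, and Ccnb2 3 and 1. In Top2a and Cdk1 a TTTGAA match lay 23 and 15 bases before the start. The log2 changes of these 4 genes were -5.15, -4.89, -5.06 and -4.12.

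In the myelin list the SOX core ACAAAG was in 9 of 35 promoters of 24 matched genes (25.7%), against 16.5% of all promoters and 12.1% of those of tested genes. ACAATG was in 8.57%, against 10.7% and 6.16%. Of the 20 promoters of newly formed oligodendrocyte genes, 3 held ACAAAG and 3 held ACAATG. The promoters of Mobp (chr9:120149492-120149741, plus strand), with 6 ACAAAG matches (CTTTGT on the other strand), and Cnp (chr11:100574689-100574938, plus strand), with 1, are shown as examples that hold it, with the matches in capitals.
Mobp: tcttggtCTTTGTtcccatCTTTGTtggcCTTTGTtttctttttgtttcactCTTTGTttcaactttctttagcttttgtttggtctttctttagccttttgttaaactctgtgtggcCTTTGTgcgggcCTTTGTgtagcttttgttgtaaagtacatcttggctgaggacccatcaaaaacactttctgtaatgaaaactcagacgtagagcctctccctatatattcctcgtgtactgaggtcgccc
Cnp: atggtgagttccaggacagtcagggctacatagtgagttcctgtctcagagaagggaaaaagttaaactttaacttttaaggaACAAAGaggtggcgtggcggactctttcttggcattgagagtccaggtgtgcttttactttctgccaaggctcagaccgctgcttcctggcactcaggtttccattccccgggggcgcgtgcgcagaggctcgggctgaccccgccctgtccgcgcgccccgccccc
The 6 Mobp matches lay from 243 to 120 bases before the start. Mobp was near 0 in OPCs and Cnp at 53.4 ± 16 TPM.

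Genes that govern entry into the cycle moved less evenly, with 20 of 32 lower and 4 higher. Beside Ccnd1, Ccnd2 (13.8 ± 2.3 to 0.369 ± 0.323 TPM), Ccne1 (26.3 ± 1.68 to 3.26 ± 0.738 TPM) and Ccne2 (25.9 to 4.67 TPM) fell. The inhibitor genes moved in both directions. Cdkn1c, for p57, read 8.35, 9.22 and 11.1 TPM in the OPC libraries and 101, 91 and 75.3 TPM in the OL libraries (log2 3.10, SE 0.155, adjusted p = 1.90e-05), and Cdkn1a, for p21, went from 94.2 ± 24.1 to 185 ± 15.7 TPM, whereas Cdkn1b, for p27, went from 63 ± 6.15 to 37.8 ± 3.11 TPM and Cdkn2c, for p18, from 74.1 ± 2.25 to 25.6 ± 0.448 TPM. E2f3 and Btg1 also rose, by log2 changes of 1.80 and 0.74, and the call of Btg1 was lost without OPC library A or OPC library B (adjusted p from 0.0503 to 0.0507). Of 16 genes of the p53 response, 9 fell and 4 rose, Mdm2 (15.8 ± 3.5 to 51.9 ± 5.29 TPM), Bbc3 (3.96 to 18.5 TPM), Phlda3 (39.8 to 69.5 TPM) and Cdkn1a being higher. Gtse1, also a gene of dividing cells, fell from 70.7 ± 11.8 to 2.33 ± 0.63 TPM.

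Genes that supply dividing cells fell as well. Of 25 genes of repair by homologous recombination, 20 fell and none rose (0 higher at an unadjusted p under 0.05), among them Rad51ap1 (41.3 ± 2.21 to 1.99 ± 1.16 TPM). Of 24 genes of nucleotide and one-carbon synthesis, 19 fell and none rose (0 at an unadjusted p under 0.05). Tyms, for thymidylate synthase, went from 59.2 ± 14.8 to 1.87 ± 1.41 TPM (log2 -4.47, SE 0.356, adjusted p = 0.000116), and Paics, of purine synthesis, from 165 ± 18.8 to 38.4 ± 10.8 TPM. Psat1, of serine synthesis, stood at 293 to 282 TPM and was not called (adjusted p = 0.661).

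RNA for the translation machinery took a smaller part of the OL libraries. Ribosomal protein genes, taken by symbol (Rpl or Rps with a number, and Rplp), held 15.9% to 16.7% of the deposited TPM in OPCs and 8.32% to 9.54% in OLs. Rps27rt is not in these shares. Of 52 listed ones, 40 fell and none rose (0 at an unadjusted p under 0.05), with a median of -0.83, and 14 fell at least 2-fold. Rplp1, for a protein of the ribosomal stalk, read 6811, 7077 and 6916 TPM in the OPC libraries and 4165, 3787 and 3721 TPM in the OL libraries (log2 -0.84, SE 0.0911, adjusted p = 0.000434). Rpl38 was not called (4961 ± 396 to 3947 ± 464 TPM, adjusted p = 0.0601), and was called in 3 of 14 alternative settings (adjusted p from 0.026 to 0.0463). Of 29 genes that build ribosomes, 23 fell and 1 rose, with a median of -0.93. Ncl, for nucleolin, went from 475 ± 82.4 to 192 ± 12.1 TPM, Npm1, for nucleophosmin, from 1090.4 ± 182 to 423 ± 41.4 TPM, and Nop56 from 84.5 ± 34.4 to 20.6 ± 7.76 TPM. Bop1 was the member that rose (log2 0.45), a call lost in 6 of 14 alternative settings, among them without OPC library B, OPC library C, OL library A or OL library B (adjusted p from 0.0613 to 0.101). Near-identical copies of ribosomal protein genes share reads, so single members are uncertain.

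Of 36 genes of splicing and RNA-binding proteins, 28 fell and 4 rose. Hnrnpa1 went from 1402 ± 43.2 to 687 ± 42.1 TPM, Srsf3 from 218 ± 14.4 to 120.0 ± 2.75 TPM, and Ptbp1, a repressor of alternative exons, from 167 ± 23 to 56.5 ± 9.19 TPM (log2 -1.55, SE 0.162, adjusted p = 0.000364). Elavl2 (10.3 to 1.51 TPM), Rbfox2 (46.5 to 15 TPM) and Celf2 (26 to 7.63 TPM) fell too. The members that rose were Qk, for quaking, a regulator of myelin RNA (184 ± 10.2 to 574 ± 20.7 TPM, log2 1.64, SE 0.092, adjusted p = 2.87e-05), Elavl3 (3.44 ± 0.169 to 139 ± 9.3 TPM), Mbnl2 (19.7 ± 2.74 to 55.8 ± 3.09 TPM) and Ptbp3 (9.66 to 20.4 TPM).

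Of 61 chromatin genes, 28 fell and 14 rose. Among those that fell, Hmgb2, for a high mobility group protein, read 326, 321 and 290.1 TPM in the OPC libraries and 22.2, 15.4 and 23.8 TPM in the OL libraries, Lmnb1, for lamin B1, went from 316 ± 6.52 to 23.8 ± 2.28 TPM (log2 -3.68, SE 0.102, adjusted p = 3.33e-06), Dnmt1, for the maintenance methyltransferase, from 34.6 ± 4.15 to 7.49 ± 0.666 TPM, and Ezh2, of the Polycomb complex, from 51.7 ± 9.54 to 26.1 ± 8.78 TPM. The call of Ezh2 was lost without OPC library B (adjusted p = 0.0626). Chd3, for a remodeller, went up from 4.23 ± 4.1 to 152 ± 9.82 TPM (log2 5.14, SE 0.493, adjusted p = 0.000253). Padi2, for a citrullinating enzyme whose substrates include myelin basic protein, read 0.811, 0.752 and 0.95 TPM in the OPC libraries and 54.1, 65 and 63.5 TPM in the OL libraries. Hdac11 (1.01 to 3.55 TPM), Dnmt3a (9.2 to 22.5 TPM) and the linker histone gene H1f0 (80.4 to 122 TPM) also rose. Of 7 Hox genes with usable levels, 6 fell, and 22 others of the list were under the filter. Hoxb3 read 25.4, 31.3 and 28.3 TPM in the OPC libraries and 3.0, 4.58 and 4.3 TPM in the OL libraries.

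In cholesterol synthesis and uptake, 13 of 26 genes rose and 4 fell, and the rises were modest, with a median of 0.40 and 4 members at least 2-fold higher. Hmgcs1, at the entry to the pathway, went from 715 ± 27.2 to 1256 ± 74.2 TPM, Lss, for lanosterol synthase, from 79.2 ± 5.28 to 168 ± 24 TPM, and Hsd17b7 from 4.37 ± 0.861 to 17 ± 1.78 TPM. The regulator Srebf2 (231 to 218 TPM) was not called. Tm7sf2 fell (20.5 ± 2.04 to 6.66 ± 3.17 TPM), as did Stard4, Scap and Sqle, with log2 changes from -0.77 to -0.54, that of Sqle being lost in 8 of 14 alternative settings, among them without OPC library A, OPC library B, OPC library C, OL library B or OL library C (adjusted p from 0.0506 to 0.0953). Genes of cholesterol export and storage rose in 6 of 10 and fell in none (0 at an unadjusted p under 0.05). Abca2, for a lipid transporter of oligodendrocytes, went from 17.4 ± 1.4 to 134 ± 3.61 TPM (log2 2.88, SE 0.0971, adjusted p = 5.29e-06), and Cyp46a1, for the cholesterol 24-hydroxylase, from 2.85 ± 0.434 to 23.3 ± 0.274 TPM.

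Of 30 genes of fatty acid and sphingolipid synthesis, 19 rose and 4 fell. Large rises were in steps of galactolipid synthesis and chain modification. Fa2h, which makes the 2-hydroxy fatty acids of myelin galactolipids, read 0.126, 0.102 and 0.373 TPM in the OPC libraries and 167, 176 and 169 TPM in the OL libraries (log2 7.17, SE 0.116, adjusted p = 7.86e-07). Gal3st1, which makes sulfatide, read 1.27, 1.24 and 0.586 TPM in the OPC libraries and 124, 116 and 119 TPM in the OL libraries (log2 5.91, SE 0.16, adjusted p = 3.32e-06). Both galactolipid genes were at most 1.5 TPM in OPCs and over 100 TPM in OLs. Ugt8a, which makes galactosylceramide, was listed at 0 in OPCs and stood at only 3.37 ± 1.43 TPM in OLs. Elovl7, for a fatty acid elongase, went from 1.92 ± 0.232 to 294 ± 17.6 TPM, Sgms2, for a sphingomyelin synthase, from 1.1 ± 0.643 to 30.2 ± 8.18 TPM, and Scd2, for a desaturase, from 1002 ± 70.3 to 2361 ± 253 TPM. The 4 members that fell were Fasn, for fatty acid synthase (151 ± 15.2 to 116 ± 8.21 TPM), Acly (94.1 ± 7.57 to 75.2 ± 6.29 TPM), Acaca and the regulator Srebf1 (112 ± 4.33 to 66.4 ± 15.2 TPM, log2 -0.77, SE 0.173, adjusted p = 0.00945). The fall of Fasn was lost in 5 of 14 alternative settings, among them without OPC library A, OPC library B, OL library A or OL library C (adjusted p from 0.0811 to 0.0977), that of Acly was lost in 8 of 14 alternative settings, among them without OPC library A, OPC library B, OL library A or OL library B (adjusted p from 0.0528 to 0.136), and that of Acaca was lost without OPC library A, OPC library B, OL library A or OL library B (adjusted p from 0.0542 to 0.0774). Of 22 peroxisome genes, 11 rose and none fell (14 higher and 0 lower at an unadjusted p under 0.05). Scp2, for a sterol carrier protein, went from 66.9 ± 8.28 to 467 ± 36.9 TPM, and Pex5l from 0.962 ± 0.266 to 20.7 ± 2.48 TPM.

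Genes of oxidative phosphorylation moved little. Of the 50 nuclear genes listed, 32 were not called, 13 fell and 5 rose, with a median of -0.17 and no change of 2-fold. Atp5b, for the catalytic subunit of ATP synthase, went from 4822 ± 49.1 to 3534 ± 199 TPM, and Ndufa1 from 340.0 ± 21 to 581 ± 13.9 TPM. Mitochondrially encoded RNA held 15.3% to 16.8% of the deposited TPM in OPCs and 18.2% to 19.0% in OLs. Of 22 genes of glycolysis and lactate, 10 fell and 4 rose. Gapdh went from 2463 ± 45.8 to 1454 ± 97 TPM, Tpi1 from 246 ± 26.8 to 66.9 ± 12.9 TPM and Ldhb, for a lactate dehydrogenase subunit, from 9.36 ± 5.75 to 0.361 ± 0.626 TPM, while Pdk2 (8.98 to 23.6 TPM) and Pdk1 (2.59 to 7.77 TPM), for kinases that inhibit pyruvate dehydrogenase, rose. Ckb, for brain creatine kinase, was high in both groups and read 5963, 5693 and 6331 TPM in the OPC libraries and 3629.9, 3232 and 3795 TPM in the OL libraries (log2 -0.76, SE 0.104, adjusted p = 0.00115). Among 12 genes of iron handling 3 rose and 1 fell, a split that became 1 and 3 without OPC library C and 1 and 2 without OL library C or with a block by column letter. Tfrc, for the transferrin receptor, fell from 7.37 ± 2.55 to 2.14 ± 0.492 TPM, and Steap3, for an iron reductase, rose from 3.68 ± 0.844 to 17.6 ± 3.14 TPM.

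Lysosome and autophagy genes rose in 22 of 34 and fell in 1, with a median of 1.02 and a sum that went from 1493 ± 144 to 3166 ± 174 TPM. Tfeb, the transcription factor of lysosome genes, read 4.47, 4.17 and 3.16 TPM in the OPC libraries and 74.8, 74.3 and 87.2 TPM in the OL libraries (log2 4.02, SE 0.14, adjusted p = 5.61e-06). Lamp1, for the main lysosomal membrane protein, went from 238 ± 16.2 to 629 ± 19.8 TPM (log2 1.40, SE 0.0946, adjusted p = 5.97e-05), Ctsl, for cathepsin L, from 31.9 ± 9.63 to 159 ± 26.6 TPM, and Atp6v0d1, of the proton pump, from 68.3 ± 6.85 to 178 ± 6.89 TPM. Genes of the unfolded protein and integrated stress response showed no common direction, with 6 of 23 higher and 7 lower. Pdia6, for a disulfide isomerase, went from 263 ± 17.2 to 125 ± 7.43 TPM and Slc7a5, for an amino acid transporter, from 87 ± 18.7 to 27.4 ± 7.59 TPM, while Dnajc3 went from 34.3 ± 4.16 to 64.4 ± 4.18 TPM and Atf6 from 9.85 ± 0.818 to 23.4 ± 1.2 TPM.

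Channel genes moved in both directions. Of 27 potassium, sodium and chloride channel genes, 13 rose and 10 fell. Beside Kcna1, Kcna2 (3.18 ± 0.365 to 57.5 ± 3.61 TPM) and Kcna6 (2.24 to 19.5 TPM), of the same Kv1 family, rose, with Hcn2, for a pacemaker channel (1.58 ± 0.16 to 27.2 ± 4.5 TPM), and Kcnj10, for the glial channel Kir4.1 (26.1 ± 6.4 to 82.8 ± 13.6 TPM, log2 1.64, SE 0.201, adjusted p = 0.000703). Kcnj16, for Kir5.1 (34.2 ± 5.75 to 10.9 ± 4.94 TPM), Kcnd2, for Kv4.2 (20 ± 2.69 to 5.3 ± 0.713 TPM), and Scn8a, for a sodium channel (25.3 to 14.7 TPM), fell. The 2 inward rectifier genes, Kcnj10 and Kcnj16, thus moved in opposite directions. Of 25 calcium genes 14 fell and 5 rose. The channel genes Cacna1c (11 ± 1.8 to 2.21 ± 0.0303 TPM), Cacna2d1 (14.2 to 2.76 TPM) and Cacnb2 (6.37 to 0.661 TPM) were lower, and so was Camk2b (48.7 ± 2.6 to 2.87 ± 0.393 TPM, log2 -3.69, SE 0.11, adjusted p = 3.94e-06). Stim1, for the sensor of store-operated entry (8.14 ± 1.28 to 47.4 ± 9.58 TPM), and Itpr2, an intracellular release channel gene (2.04 to 10.3 TPM), were higher, whereas Itpr1 was lower (20.5 to 3.59 TPM).

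Of 16 tested genes for glutamate, GABA and glycine receptors and their partners, 10 rose and 4 fell. Among ionotropic subunits, Gria2, the subunit that makes AMPA receptors impermeable to calcium, read 25.9, 27.4 and 27.3 TPM in the OPC libraries and 138, 157 and 125 TPM in the OL libraries (log2 2.33, SE 0.114, adjusted p = 1.73e-05), and the kainate receptor genes Grik3 (11.1 ± 1.54 to 123 ± 5.08 TPM) and Grik2 (5.77 ± 0.488 to 37.8 ± 2.0 TPM) rose with it. Among metabotropic receptors, Grm5 read 61.6, 63.8 and 59 TPM in the OPC libraries and 3.04, 2.49 and 1.41 TPM in the OL libraries (log2 -4.27, SE 0.198, adjusted p = 1.47e-05) and Grm3 went from 20.3 ± 4.32 to 1.64 ± 0.882 TPM. Cacng4, an AMPA receptor partner, fell (40.1 to 21.2 TPM) and Cacng7 rose (33.4 to 95.4 TPM). Of 22 solute carriers 10 rose and 10 fell. Slc1a1, for a glutamate transporter, read 5.05, 3.5 and 3.55 TPM in the OPC libraries and 425, 455 and 369 TPM in the OL libraries, while Slc1a3, for the glial glutamate transporter GLAST, went from 25.2 ± 4.33 to 2.83 ± 1.0 TPM (log2 -2.80, SE 0.239, adjusted p = 0.000155). Slc44a1, for a choline transporter, went from 19.6 ± 1.85 to 455 ± 15.8 TPM, and Slc12a2, for the chloride importer NKCC1, from 31.3 ± 4.01 to 225 ± 11.5 TPM.

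Junction genes rose in 10 of 14, all 10 at least 2-fold, and 1 fell. Gjc3, for connexin 29, read 13.2, 9.97 and 17.8 TPM in the OPC libraries and 979, 1192 and 1049.6 TPM in the OL libraries (log2 6.23, SE 0.209, adjusted p = 5.22e-06), and Gjb1, for connexin 32, went from 0.205 ± 0.0552 to 5.96 ± 1.25 TPM. Panx1, for a pannexin, went from 19.9 ± 0.263 to 140.0 ± 10.4 TPM. Mpdz fell (21.2 to 13.8 TPM), and Tjp1 (57.4 to 60.4 TPM) was not called.

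The tubulin genes moved in both directions. Of 35 tubulin and microtubule genes, 21 rose and 6 fell. Tuba1a read 2255, 2213 and 2607 TPM in the OPC libraries and 8662, 8879.7 and 9038 TPM in the OL libraries (log2 1.91, SE 0.102, adjusted p = 2.39e-05), while Tuba1b read 1230.4, 1209.9 and 994 TPM in the OPC libraries and 269, 254 and 303 TPM in the OL libraries (log2 -2.05, SE 0.128, adjusted p = 4.44e-05) and Tuba1c went from 196 ± 27.9 to 38.1 ± 6.41 TPM. Among beta-tubulins, Tubb4a (log2 8.03, SE 0.128, adjusted p = 7.86e-07), Tubb4b (281 ± 18.1 to 610.4 ± 17.9 TPM) and Tubb2b (799 ± 53.2 to 1048 ± 33.6 TPM) rose, and Tubb5 (823 ± 60.7 to 302 ± 21.3 TPM), Tubb2a (369 ± 18 to 201 ± 12.2 TPM) and Tubb6 (78.6 ± 15.8 to 6.42 ± 2.12 TPM) fell. Tubulin genes are close copies, so reads can be split between them. Of the proteins that bind microtubules, Tppp, for a polymerization factor of oligodendrocytes, read 3.74, 5.2 and 5.63 TPM in the OPC libraries and 199.9, 198 and 209 TPM in the OL libraries (log2 5.13, SE 0.145, adjusted p = 3.52e-06). Mapt, for tau (5.67 ± 1.06 to 162 ± 17.6 TPM), Map7 (1.48 ± 0.729 to 77.4 ± 11.1 TPM), Map1b (12.9 ± 1.44 to 178 ± 19.3 TPM) and the dynein light chain gene Dynll2 (124 ± 4.98 to 1183 ± 70.4 TPM) rose as well. Tubg1, for the gamma-tubulin of spindle poles, fell (81.9 ± 4.49 to 42.3 ± 1.98 TPM).

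**Figure D4:**
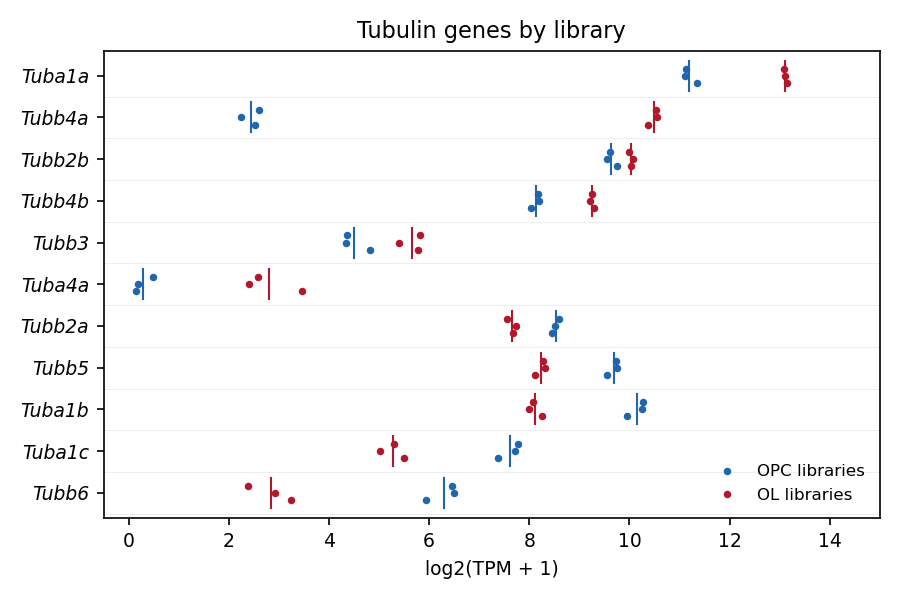
Level of 11 tubulin genes in each library as log2(TPM + 1), blue OPCs and red OLs, with a vertical line at each group mean. Tuba1a, Tubb4a, Tubb2b, Tubb4b, Tubb3 and Tuba4a lie higher in every OL library, and Tubb2a, Tubb5, Tuba1b, Tuba1c and Tubb6 in every OPC library.

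Of 41 genes of actin and its regulators, 16 rose and 10 fell. The Arp2/3 subunit genes Arpc1b (24.5 ± 9.3 to 357 ± 15.5 TPM, log2 3.87, SE 0.249, adjusted p = 4.88e-05) and Arpc1a (5.92 ± 1.13 to 169.7 ± 11.1 TPM) rose, as did Lima1 (17.2 ± 1.33 to 274 ± 27.2 TPM), Fscn1, for the bundling protein fascin (63.4 ± 22.2 to 274 ± 3.88 TPM), and Gsn, for the severing protein gelsolin (21.2 ± 5.99 to 97.8 ± 5.78 TPM). Msn, for moesin, fell from 176 ± 10.5 to 31.7 ± 6.3 TPM (log2 -2.45, SE 0.164, adjusted p = 5.70e-05), Tmsb4x, for the actin-sequestering thymosin beta 4, from 1128 ± 124 to 469 ± 26.4 TPM, Myh10, for a non-muscle myosin, from 48 ± 2.37 to 12.2 ± 2.62 TPM, and the kinase gene Rock2 from 38.5 ± 3.88 to 11.7 ± 1.32 TPM. Of 34 genes of vesicle traffic, 19 rose and 2 fell. Bin1, for an amphiphysin that bends membrane, read 32.5, 29.2 and 27.1 TPM in the OPC libraries and 530.2, 512 and 589.7 TPM in the OL libraries (log2 4.16, SE 0.111, adjusted p = 3.32e-06), Rab33a went from 1.61 ± 0.519 to 181 ± 7.59 TPM, and Dnm3, for a dynamin, from 3.88 ± 0.788 to 125 ± 6.89 TPM. Rab31 fell (256 ± 5.54 to 128 ± 3.14 TPM). Rab3a, for a vesicle GTPase, went from 2.77 ± 0.152 to 40.8 ± 6.02 TPM. Snap25, for a membrane fusion protein of neurons, stood at 1.61 to 0.644 TPM and was not called with all libraries. It was called without OPC library A or OL library A (adjusted p from 0.0316 to 0.0489).

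The matrix changed in kind: 12 of 29 genes rose and 11 fell, or 11 and 13 of 42 with no filter on low TPM. Fbln2, for fibulin 2, read 71.8, 76.2 and 55.3 TPM in the OPC libraries and 0.551, 0.554 and 0.632 TPM in the OL libraries (log2 -5.43, SE 0.14, adjusted p = 3.21e-06), and Fbln1 went from 76.4 ± 11.7 to 3.19 ± 0.911 TPM, and Lama5, for a laminin chain, from 24 ± 3.31 to 2.22 ± 0.431 TPM. The collagen genes Col9a3 (27.6 ± 0.862 to 410.2 ± 40.9 TPM), Col9a1 (2.59 ± 0.216 to 73.8 ± 21.5 TPM), Col9a2 (1.17 to 10.1 TPM) and Col11a2 (0.149 ± 0.137 to 67.4 ± 19.5 TPM, log2 5.87, SE 0.214, adjusted p = 6.51e-06), known from cartilage, rose together with Tnr. Among 27 integrin and focal adhesion genes 12 rose and 10 fell. Itga6, for a laminin receptor chain (87.7 ± 9.06 to 22.5 ± 2.88 TPM), Itga5, for a fibronectin receptor chain (6.52 ± 0.695 to 0.335 ± 0.164 TPM), and Lgals1, for galectin 1, fell, Lgals1 reading 1462, 1669 and 1740.0 TPM in the OPC libraries and 75.6, 74.6 and 62.7 TPM in the OL libraries (log2 -4.50, SE 0.122, adjusted p = 3.33e-06). Itgb4 (0.00865 ± 0.015 to 5.02 ± 1.97 TPM), Ilk, for integrin-linked kinase (109 ± 7.46 to 404 ± 18.8 TPM), and the tetraspanin genes Cd82 (2.25 to 27.3 TPM), Cd81 (469 ± 42.1 to 981 ± 88.6 TPM) and Cd9 (105 ± 1.55 to 818 ± 72.9 TPM) rose.

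Adhesion genes rose in 24 of 38 and fell in 8, with a median of 0.97. Cadm4, for the glial partner of axonal nectin-like molecules, went from 134 ± 16.7 to 789.6 ± 45.7 TPM (log2 2.56, SE 0.125, adjusted p = 1.72e-05), Lsamp from 19.5 ± 2.77 to 182 ± 12.4 TPM, Opcml from 3.32 ± 0.257 to 50.4 ± 8.29 TPM and Ncam2 from 12.4 ± 1.61 to 57.9 ± 2.63 TPM. Chl1 (4.13 ± 0.847 to 0.28 ± 0.307 TPM) and Cdh4 (2.22 ± 0.811 TPM in OPCs, listed at 0 in OLs) were among those that fell. Of 39 genes of axon guidance and of myelin inhibitors of axon growth, 19 rose and 14 fell. The inhibitor genes rose: beside Mag, Rtn4, for Nogo, read 142, 135 and 169.7 TPM in the OPC libraries and 751, 785 and 700.2 TPM in the OL libraries (log2 2.32, SE 0.12, adjusted p = 2.20e-05) and Omg went from 9.25 ± 1.85 to 70.2 ± 2.13 TPM. Sema4d (2.6 ± 0.85 to 108 ± 6.8 TPM), Sema6a (26.6 ± 2.43 to 109 ± 8.19 TPM) and the plexin gene Plxnb3 (14.1 ± 4.13 to 324 ± 32.7 TPM, log2 4.46, SE 0.206, adjusted p = 1.47e-05) rose as well. Lgi3, for a secreted protein at the axon interface, went from 1.66 ± 0.135 to 221 ± 10.6 TPM. Cues and receptors of guidance that fell included Ntn4 (30.1 ± 6.58 to 1.68 ± 0.0529 TPM), Ntn1 (129 ± 5.19 to 38.7 ± 6.79 TPM), Sema3a (28.4 ± 0.538 to 2.59 ± 0.813 TPM), Robo1 (15.4 to 3.09 TPM), Robo2 (12.5 to 1.97 TPM) and Nrp2 (10.7 to 1.96 TPM). Of 21 metalloprotease genes and inhibitors 10 fell and 6 rose. Mmp15, a membrane-type protease gene, went from 143 ± 19.1 to 12.9 ± 0.909 TPM (log2 -3.37, SE 0.126, adjusted p = 7.01e-06) and Adam12 from 21.6 ± 4.19 to 0.116 ± 0.20 TPM, while Adamts4, for a versican- and aggrecan-cleaving protease, read 3.35, 3.08 and 5.54 TPM in the OPC libraries and 99, 98.2 and 95.1 TPM in the OL libraries.

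Immune genes showed no common direction, with 7 of 16 interferon genes higher and 5 lower, and 6 of 15 genes of complement and antigen presentation higher and 4 lower. The class I genes H2-K1 (4.07 ± 2.02 to 15.6 ± 6.0 TPM) and H2-D1 (2.58 ± 0.657 to 7.01 ± 0.529 TPM) rose, while B2m, for their light chain (74.8 ± 8.56 to 49.7 ± 6.42 TPM), and Tap1, for the peptide transporter (5.34 ± 0.229 to 1.52 ± 0.31 TPM), fell. H2-Ab1, for a class II chain, went from 0.589 ± 0.552 to 22.5 ± 5.33 TPM (log2 3.92, SE 0.28, adjusted p = 7.49e-05). Mx2 went from 0.394 ± 0.388 to 16.5 ± 0.88 TPM.

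Markers of other cell types were checked in the same libraries. Of 15 tested astrocyte genes 7 rose and 4 fell, and their sum read 2506, 2229 and 2634 TPM in OPCs and 3828, 5313 and 8091 TPM in OLs. The sum was higher in every OL library and spread widely among them. Gfap, for the astrocyte filament protein, read 0.392, 0.226 and 0.139 TPM in the OPC libraries and 99.3, 376 and 104 TPM in the OL libraries (log2 6.99, SE 0.515, adjusted p = 8.45e-05). Apoe, for the lipid carrier of astrocytes, read 104, 66.3 and 63.8 TPM in the OPC libraries and 683, 1143 and 2315 TPM in the OL libraries (log2 3.99, SE 0.456, adjusted p = 0.000527). S100b, which oligodendrocytes also express, read 19.7, 16.2 and 32.9 TPM in the OPC libraries and 942, 1007 and 1017 TPM in the OL libraries, and Cst3, for cystatin C, 904, 806 and 1158 TPM in the OPC libraries and 1589.5, 2067 and 3717 TPM in the OL libraries. Library B was highest of the OLs for Gfap and for Aqp4 (below), and library C for Apoe, S100b and Cst3. Of the more specific markers, Aqp4 read 1.05, 0.851 and 0 TPM in the OPC libraries and 2.35, 9.81 and 1.19 TPM in the OL libraries, was not called with all libraries, and was called in 2 of 14 alternative settings, among them without OL library C (adjusted p from 0.0364 to 0.0368). Aldh1l1 read 0.451, 2.26 and 0.495 TPM in the OPC libraries and 1.09, 0.619 and 0 TPM in the OL libraries, below the filter, and Gjb6 was at 0 in all but 1 library. Slc1a3 (25.2 to 2.83 TPM), Sox9 (47.1 to 16.9 TPM), Fgfr3 (51.5 to 24.9 TPM) and Vim (825 ± 58.6 to 140.2 ± 27.1 TPM) fell. Glul, Clu and Gja1 also rose, Gja1 from 91.4 ± 8.93 to 199.6 ± 98.1 TPM, a call lost in 8 of 14 alternative settings, among them without OPC library A, OPC library B, OPC library C, OL library B or OL library C (adjusted p from 0.0522 to 0.119); that of Cst3 was lost without OPC library B (adjusted p = 0.0519), and that of Glul was lost without OPC library C or OL library B (adjusted p from 0.053 to 0.0537). The part of astrocyte RNA in these changes was not tested.

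Markers of further cell types were mixed. Of 13 microglia markers 1 passed the filter, and it fell (log2 -0.60). The list summed to 15.5 ± 1.42 TPM in OPCs and 10.4 ± 1.72 TPM in OLs. Cx3cr1, among those below the filter, was at 0 in OPCs and at most 0.0592 TPM in OLs. Of 11 tested neuron markers 5 fell and 2 rose (Tubb3, 22 ± 4.56 to 50.3 ± 7.84 TPM, and Elavl3, 3.44 ± 0.169 to 139 ± 9.3 TPM), while Syn1 fell (7.08 to 1.49 TPM). The sum of the neuron list was 376 ± 53.6 TPM in OPCs and 472 ± 30.1 TPM in OLs, and that of the ependymal and radial glia list 361 ± 67.7 and 543 ± 33.0 TPM; their part in the other results was not tested. Pou5f1, of pluripotent cells, was listed at 0 in all 6 libraries, and Nanog stood under 1 TPM in each. Of the lists of fibroblast and pericyte, endothelial, Schwann cell, and ependymal and radial glia markers, 3, 3, 5 and 8 genes were tested, of which 0, 1, 1 and 2 rose and 2, 1, 3 and 3 fell by limma. The 2 lower genes of the fibroblast and pericyte list were Cspg4 and Pdgfra, which progenitors share, and 0 of that list were higher at an unadjusted p under 0.05. Pmp22, a peripheral myelin gene, fell (52.3 ± 2.18 to 7.7 ± 4.23 TPM), and Nes, for the progenitor filament nestin, went from 7.18 ± 1.71 to 0.432 ± 0.258 TPM.

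**Figure D5:**
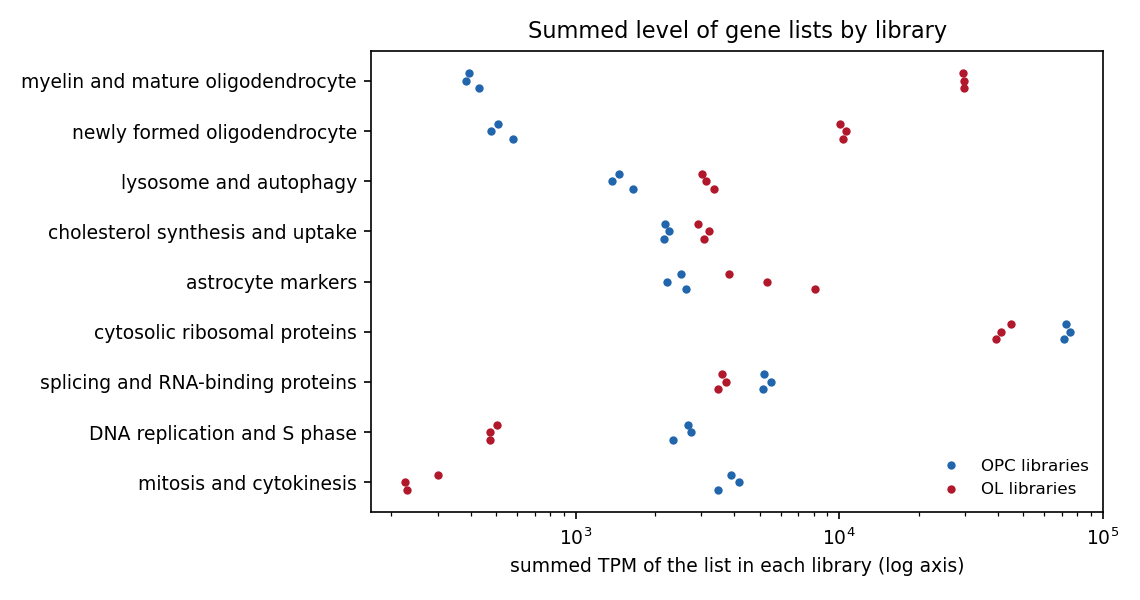
Summed TPM of 9 gene lists in each library on a log axis, blue OPCs and red OLs. The groups are apart for every list shown; among the OL libraries the astrocyte sum runs from 3828 to 8091 TPM while the myelin sum runs only from 29442 to 29834 TPM.

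Library A of the OLs held the highest levels of mitosis genes in that group, with a sum of 299.9 TPM against 224.7 and 230.3 TPM in the others, and 3458 to 4164 TPM in OPCs. Zeb1, for a repressor of differentiation genes, was also highest there, at 22.4, 4.7 and 5.0 TPM in OLs against 64.1, 46.9 and 54.2 TPM in OPCs (log2 -2.58, SE 0.554, adjusted p = 0.00765). Of 2811 genes with at least 50 TPM, 54 ranged at least 2-fold among the OL libraries and 38 among the OPC libraries. The mitosis, replication, repair, nucleotide and ribosome lists each had more falls than rises without this library too.

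By level, the genes that led the OPC libraries were Rps27rt (8893 ± 890.0 to 4408 ± 758 TPM), Gm28661, Rplp1, Rpl41 (6000.5 ± 261 to 2879 ± 347 TPM), Ckb, Rpl36, Rps21, Rpl38, Rps29 and Atp5b, mitochondrial genes apart. In OLs they included Mbp, Gm28661, Tuba1a, Gm29216, Rps27rt, Rpl38, Rplp1, Cnp and Sirt2. Both sets held 4 genes, Rps27rt, Gm28661, Rpl38 and Rplp1. Near-identical copies of ribosomal protein genes share reads, so the level of Rps27rt is uncertain. Rps27 itself read 344, 218 and 209 TPM in the OPC libraries and 89.6, 170 and 286 TPM in the OL libraries. Gm28661 and Gm29216 are annotated as unprocessed pseudogenes on chromosome 1 and are copies of mitochondrial genes, so their reads are shared. Gm28661 read 7596, 7949.7 and 10231 TPM in the OPC libraries and 11579, 12272 and 10524 TPM in the OL libraries, and its rise (log2 0.43, SE 0.144, adjusted p = 0.0427) was lost in 8 of 14 alternative settings, among them without OPC library A, OPC library B, OL library A, OL library B or OL library C (adjusted p from 0.0525 to 0.126).

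Annotated gene length differed a little between the directions of change. Among 11307 protein-coding genes matched to the annotation (GENCODE M21, GRCm38), the median span was 24.8 kb. It was 27.5 kb for genes that rose, 24.5 kb for those that fell and 23.4 kb for those not called. Genes over 100 kb made up 18.0%, 14.6% and 12.1% of the 3 sets. Among genes changed at least 2-fold the shares were 22.9% of those higher and 17.8% of those lower, both above the 14.5% of all matched genes. Among genes changed at least 16-fold they were 27.9% of those higher and 5.48% of those lower, the latter being 4 of 73 genes. These shares are descriptions with no test.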

How the data were processed

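Poly(A) RNA libraries (NEBNext Ultra, a kit that does not mark strand, per the labels' protocols) of 3 sorted OPC and 3 sorted OL samples were compared. The authors deposited TPM per gene symbol; Salmon 0.14.1, DESeq2 and the build mm10 are named in the submitters' processing notes, and no source used here states how transcripts were summed to symbols. From the TPM, log2(TPM + 1) was computed for the 11902 genes with at least 1 TPM in at least 3 libraries and tested two-sided with limma 3.58.1 (R 4.3.3), with Benjamini-Hochberg adjustment over all of them and a threshold of 0.05. On simulated data of 11902 genes, 68, 66 and 66 genes were changed by 0.5, 1 and 2 on the log2 scale. Of these the test recovered 10.3%, 56.1% and 86.4%. The threshold after adjustment depends on the share of changed genes, and 60.2% were called in the real data. These rates are therefore not the recovery of this comparison. Tables of the other 17 samples were not used, being normalized separately. The members and gene lists were chosen with earlier results of these data known. Named genes are the 15 largest rises and falls among called, non-overlapping genes with a mean of at least 10 TPM in the higher group (predicted, mitochondrial and ribosomal protein genes apart), the 10 of highest level in each group, 5 markers, and in each list called members of high level or large change and those that went against the majority; further members were named after their values were seen. Promoters were read from RefSeq (GRCm38.p6), and 9019 of the tested genes matched. Among the deposited symbols, 26 rows carry a date in place of a gene symbol. Of these, 19 are within the genes tested and 14 within those called. Which genes they stand for was not resolved, so they are counted but not named. The alternatives were other pseudocounts, filters, scalings, a variance trend, a block and leaving out each library. The column letters are not the labels' replicate numbers. Some genes are not reported here.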

Additional observations from a re-analysis of the deposited data

How the results depend on the processing

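Of the genes called, none was called in the opposite direction in any of the 14 alternative settings. With a pseudocount of 5 in place of 1, genes lower by at least 2-fold fell in number from 1989 to 1115, and higher ones from 1669 to 1114. The limma treat test against a 2-fold change called 981 genes higher and 931 lower. Without each library in turn, between 2783 and 3072 genes were higher and between 3458 and 3874 lower; at least 2-fold they were 1633 to 1713 and 1881 to 2033. A replicate block by column letter gave 2994 higher and 3830 lower genes. The deviations of same-letter libraries correlated at 0.0111, 0.0516 and 0.0463 across genes, and those of different letters at -0.0651 to 0.019. With 3 libraries a group, whether a letter marks a shared line or batch cannot be told. With libraries centred on their medians, which moved the median gene from -0.14 to -0.045, 3484 genes were higher and 3570 lower, 49.4% of calls being higher against 43.7%, and at least 2-fold there were 1824 higher and 1749 lower. The majority direction of a list turned only for BMP and TGF-beta, iron handling and matrix genes, and for none under either rescaling. Depth limits the low genes, and its size cannot be read from TPM.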
